A study of Mus musculus with 12 samples.

Results

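This report describes the Period genes Per1, Per2 and Per3 and the cryptochrome genes Cry1 and Cry2, the 5 genes whose proteins close the main negative feedback loop of the circadian clock. They were taken by symbol, through their Ensembl identifiers, from the 57180 genes counted in each kidney library. All 5 were among the 17163 genes that passed the filter on low counts, and each had at least 30 counts in every library, so that none passed through a single group. They were chosen by name with their measured fold changes between CBD-treated and control mice already in view, so those differences are given below as a description of the mice and not as tests.

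Kidneys came from 12 male C57BL/6J mice, an inbred strain, which were young adults when treatment began and were kept in equal hours of light and darkness. All mice received intraperitoneal injections every day for 28 days. The 4 control mice received the vehicle, saline with the detergent Tween 80, and 4 mice each received 10 or 20 mg of cannabidiol (CBD) per kg of body weight (b.w.) in it. CBD is a plant compound from hemp that is not intoxicating. Every library held the poly(A) RNA of 1 kidney sample from 1 mouse. The time of day at which each mouse was killed is not given in the sources used here, and the order in which the groups were killed is not given either.

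In the clock of most mammalian cells, BMAL1 pairs with CLOCK or NPAS2, binds E-box sequences and turns on the Period and cryptochrome genes. The PER and CRY proteins gather in the cytoplasm, return to the nucleus and hold back BMAL1 and CLOCK until they are broken down, which makes a cycle of about a day. The 5 mRNAs do not peak together. In peripheral organs such as liver and kidney, Per3 mRNA peaks early among them, close to the D-box factor Dbp, Per1 and Per2 follow, and Cry1 peaks last, at a time when Dbp is low. Cry2 has a shallow rhythm. D-box factors (DBP, TEF and HLF, opposed by NFIL3) and REV-ERB and ROR receptors tune these phases, and Per1 and Per2 are also induced directly by glucocorticoids and by cAMP signals.

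Sequence before the start sites was examined first, since the members differ in the clock elements that they carry. In the RefSeq promoter table (build GRCm38.p6), which covers 250 bases before to 50 bases after each start, 4 of the 5 genes were found, with 5 windows. Per2 was not among them. The 250 bases before the start of Per3 (chr4:151044666-151044915, minus strand) and of Cry1 (chr10:85185055-85185304, minus strand) are shown, because these genes differed most from control mice and in opposite directions. Capitals mark the motifs found.
Per3: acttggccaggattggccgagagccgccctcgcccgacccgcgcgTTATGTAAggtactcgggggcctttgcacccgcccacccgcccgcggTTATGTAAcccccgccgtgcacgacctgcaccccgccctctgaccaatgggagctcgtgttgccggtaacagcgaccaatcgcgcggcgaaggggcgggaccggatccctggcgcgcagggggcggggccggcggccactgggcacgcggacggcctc
Cry1: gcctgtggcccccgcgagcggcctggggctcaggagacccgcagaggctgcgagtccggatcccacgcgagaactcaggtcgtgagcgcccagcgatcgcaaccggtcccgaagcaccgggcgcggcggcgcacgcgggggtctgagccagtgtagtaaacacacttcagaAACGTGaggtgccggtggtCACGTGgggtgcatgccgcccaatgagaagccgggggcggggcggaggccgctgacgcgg

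The Per3 sequence held 2 copies of the D-box TTATGTAA, at 205 to 198 and at 158 to 151 bases before the start. A D-box, searched on both strands as TTATGTAA or TTACGTAA, was present in 1.06% of the 32851 promoter windows of 27025 mouse genes. The Cry1 sequence held no D-box. It held an E-box, CACGTG, at 60 to 55 bases before the start, and an E-prime box (searched as CACGTT, here on the other strand as AACGTG) at 79 to 74. E-boxes were found in 7.15% and E-prime boxes in 4.68% of all windows. Per1, with 2 windows, had an E-box at 166 to 161 bases before its upstream start (chr11:69098699-69098948, plus strand) and none at the other start. Cry2 (chr2:92434070-92434319, minus strand) had an E-prime box at 166 to 161 bases. The cAMP element TGACGTCA, the ROR element (TAGGTCA or TGGGTCA), the palindromic glucocorticoid element and the heat shock element were not found in these windows, where they occur in 1.79%, 6.45%, 0.00913% and 0.603% of all windows. Motifs found did not overlap each other. A match is a description of these letters and was not tested as a binding site.

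On GRCm39, the build to which the reads were mapped, Per1 (ENSMUSG00000020893) lies on the plus strand at chr11:68986035-69002300 with 23 exons in its main transcript. Per2 (ENSMUSG00000055866) spans chr1:91343700-91387069 and Per3 (ENSMUSG00000028957) spans chr4:151081373-151129140, with 23 and 21 exons. Cry1 (ENSMUSG00000020038) lies at chr10:84967560-85021252 with 13 exons, and Cry2 (ENSMUSG00000068742) at chr2:92233894-92264474 with 12. All but Per1 are on the minus strand. Counts were made on whole genes, so that isoforms and start sites of Per1 were not separated. The strand setting of the counting is not given in the sources used here. Per3 shares 154 exon bases with the antisense gene Uts2, which had 7 counts over the 12 libraries against 4319 for Per3. Cry2 shares 296 with the antisense gene D930015M05Rik, which had 106 counts against 4463 for Cry2.

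Libraries held between 15417867 and 23532088 counts on genes. Mitochondrial transcripts took 3.53% to 23.4% of the counts, and 4 libraries were under 10%: replicate 2 of the control group, replicates 1 and 3 of the group treated with 10 mg and replicate 3 of the group treated with 20 mg. Markers of kidney cells were abundant in all libraries. Those of the proximal tubule summed to 22630 to 29790 CPM (counts scaled to a library of fixed size), of the thick ascending limb to 1052 to 2328, of the distal convoluted tubule to 458 to 860, of the collecting duct to 218 to 315, of podocytes to 315 to 463 and of endothelium to 129 to 205. Among other tissues, blood genes summed to 627 to 1693 CPM, immune cell genes to 21.5 to 35.3, adrenal cortex genes to 3.73 to 5.68 and skeletal muscle genes to 0.707 to 1.49. Adipocyte genes stood apart, with sums of 6.50 to 96.5 CPM in control mice, 0.949 to 34.9 at 10 mg and 0.420 to 18.4 at 20 mg. Of these markers only Slc5a2, a proximal tubule glucose transporter, was called in any comparison, with a log2 fold change of -0.61 (SE 0.12) at 20 mg. No marker was at 0 in all libraries.

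The order of the 5 mRNAs was compared as CPM per kb of exon, a scale that sets levels of different genes side by side. The order on it depends on the exon length taken for each gene. Per1 was the most abundant in every group, with 7.11 ± 1.19 in control mice, 7.46 ± 1.44 at 10 mg and 10.3 ± 1.32 at 20 mg (SD, n = 4 each), and it lay above each other member in all 12 mice without overlap within any group. In control mice it was followed by Cry2 (1.92 ± 0.306), Per2 (1.38 ± 0.255), Cry1 (1.34 ± 0.440) and Per3 (0.971 ± 0.165). Neighbours among these 4 overlapped between mice, and Per2 exceeded Cry1 in 2 of 4 mice. In CPM, before division by exon length, the lowest mean in control mice was that of Cry1 (6.69) and not that of Per3 (10.2). In both treated groups Cry1 was last, at 0.616 ± 0.204 and 0.539 ± 0.105, below every other member in all 8 mice. Per3 was last in the control mice, after Per1 and Cry2 in the group treated with 10 mg (2.05 ± 0.216) and next to Per1 in the group treated with 20 mg (2.55 ± 0.351), where it overlapped Cry2 (2.41 ± 0.482) and Per2 (2.32 ± 0.407). The middle 3 genes overlapped in both treated groups.

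**Figure D1:**
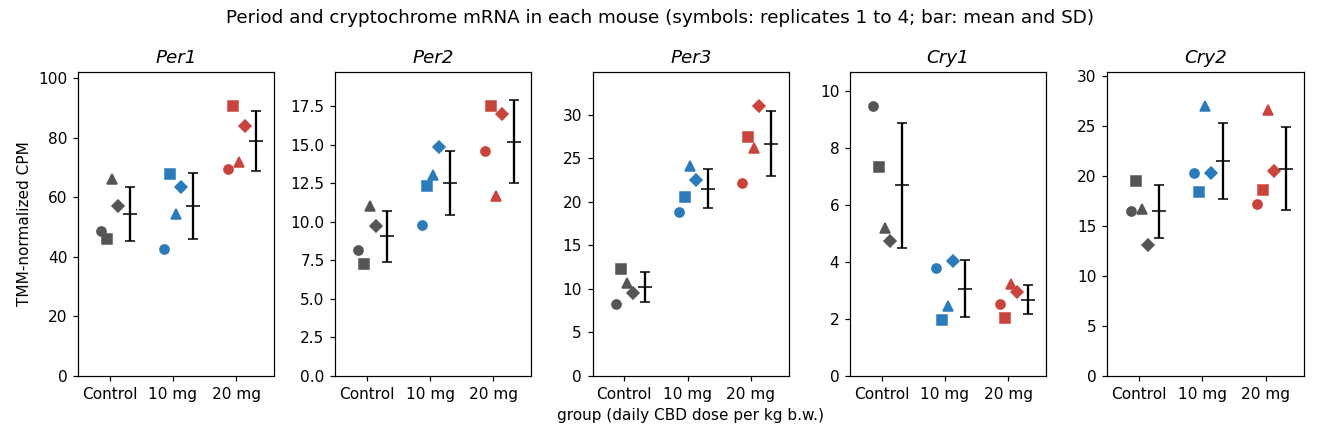
TMM-normalized CPM of each gene (vertical axes, linear and starting at 0) in the 4 mice of the control group and of each dose group, with a symbol for each replicate number and a bar for the mean and SD. Per3 lay between 8.23 and 12.3 in control mice and between 18.9 and 31.1 in treated mice, while Cry1 lay between 4.73 and 9.49 in control mice and between 1.98 and 4.05 in treated mice.

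Per3, the Period gene regarded as least needed for the rhythm itself, was higher at both doses. Its normalized level was 8.23, 12.3, 10.7 and 9.52 CPM in the control mice, 18.9, 20.6, 24.1 and 22.5 CPM at 10 mg and 22.1, 27.5, 26.2 and 31.1 CPM at 20 mg. Every treated mouse lay above every control mouse, and the doses overlapped each other. The log2 fold change was 1.08 (SE 0.15) at 10 mg and 1.39 (SE 0.15) at 20 mg, which is 2.11-fold and 2.62-fold, and both passed the threshold of an adjusted p-value under 0.1 in edgeR. In a bulk sample such as this, a difference in the number of cells of a type and a difference in RNA per cell cannot be told apart. The call at 10 mg was lost when control mouse 1 (log2 fold change 0.99), control mouse 4 (1.05) or mouse 3 given 10 mg (1.02) was left out, and the call at 20 mg was kept in all fits without 1 library. In libraries with a mitochondrial share of at least 10%, the differences were 1.18 and 1.51.

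Per2, which drives the length of the cycle together with Per1 and is a target of glucocorticoids, was called at neither dose in edgeR. The control mice had 8.19, 7.25, 11.0 and 9.73 CPM, those treated with 10 mg had 9.81, 12.3, 13.0 and 14.9 CPM, and those treated with 20 mg had 14.6, 17.5, 11.7 and 17.0 CPM. All mice treated with 20 mg lay above all control mice, whereas the group treated with 10 mg overlapped both. The log2 fold change was 0.47 (SE 0.18) at 10 mg and 0.75 (SE 0.18) at 20 mg. DESeq2, the tool of the study, called the difference at 20 mg.

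Per1, the member most quickly induced by hormones and by light in other tissues, had 48.7, 46.0, 66.2 and 56.9 CPM in the control mice and 42.8, 67.7, 54.5 and 63.5 CPM in the group treated with 10 mg. Those groups overlapped, with a log2 difference of 0.07 (SE 0.16) whose sign turned when control mouse 2 (-0.01) or mouse 2 given 10 mg (-0.03) was left out. The mice treated with 20 mg had 69.5, 90.8, 72.0 and 83.9 CPM, all above the 8 other mice. The log2 difference from control mice was 0.54 (SE 0.16) and was not called by edgeR or DESeq2.

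Cry1, the strongest repressor of BMAL1 and CLOCK among the cryptochromes, had the opposite direction. It was present at 9.49, 7.35, 5.19 and 4.73 CPM in the control mice, at 3.80, 1.98, 2.44 and 4.05 CPM at 10 mg and at 2.52, 2.04, 3.24 and 2.94 CPM at 20 mg. Every treated mouse lay below every control mouse, although the lowest control mouse and the highest treated mouse were close, and the control mice differed 2.01-fold among themselves. With 30 to 226 counts per library, Cry1 was also the member with the largest error of counting. The coefficient of variation between control mice was 32.7%, against 8.38% from counting alone. The log2 fold change was -1.12 (SE 0.27) at 10 mg, which edgeR did not call and DESeq2 did, and -1.32 (SE 0.28) at 20 mg, 2.50-fold lower, which both called. The edgeR call at 20 mg was lost in 9 of 12 fits without 1 library (log2 fold change from -1.45 to -1.10) and kept when mouse 1, 2 or 4 given 10 mg was left out.

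Cry2, the second cryptochrome, did not follow Cry1. Levels were 16.5, 19.5, 16.7 and 13.1 CPM in the control mice, 20.3, 18.3, 27.0 and 20.3 CPM at 10 mg and 17.2, 18.6, 26.6 and 20.4 CPM at 20 mg. The groups overlapped at both doses. The log2 difference was 0.39 (SE 0.17) at 10 mg and 0.33 (SE 0.17) at 20 mg, called by neither tool. The highest mouse of each group was a library with a mitochondrial share under 10%. With that share as a covariate the differences were 0.27 and 0.37, and neither was called. Without mouse 3 given 10 mg the first was 0.25, without mouse 3 given 20 mg the second was 0.19, and with the adipocyte covariate the second was 0.11.

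Of the 5 genes, 1 was called at 10 mg, where 0.0291% of all genes tested were called, and 2 were called at 20 mg, where 0.303% were. At 10 mg, 1 gene (Per3) lay wholly above and 1 (Cry1) wholly below the control mice, against 1.55% of all genes wholly above and 1.64% wholly below. At 20 mg, 3 (Per1, Per2 and Per3) lay wholly above and Cry1 wholly below, against 2.67% and 2.63% of all genes. DESeq2 called 2 members at 10 mg and 3 at 20 mg, and 0.233% and 1.06% of all genes. Since these contrasts chose the genes, nothing is read from those counts. The median log2 fold change of the members was 0.39 at 10 mg and 0.54 at 20 mg, beside 0.01 for all genes tested at each dose.

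**Figure D2:**
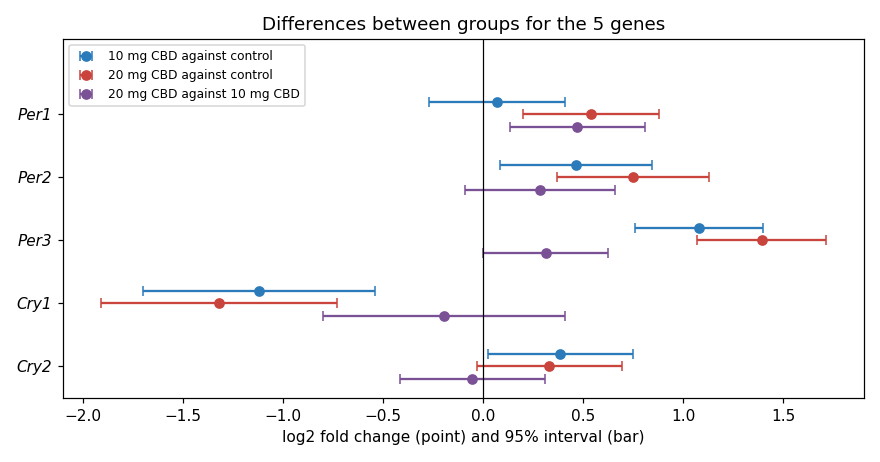
Log2 fold change (horizontal axis) with its 95% interval for each gene and each comparison, from the edgeR fit to all 12 mice. Per3 lay above 0 and Cry1 below 0 at both doses, and against the lower dose only the interval of Per1 (0.13 to 0.81) lay clear of 0.

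The comparison of the doses with each other was not itself used to choose the genes. Its difference is that between the contrasts with control mice that were in view. Its p-values are therefore not independent of the choice. No member was called by edgeR at an adjusted p-value under 0.1, and none by DESeq2. At an unadjusted p-value under 0.05, 1 of the 5 passed, which was Per1. Among all 17163 genes, edgeR called 0 (0%), DESeq2 called 12 (0.0699%) and 1083 (6.31%) had an unadjusted p-value under 0.05. For Per1 the log2 difference of 20 mg from 10 mg was 0.47 (95% interval 0.13 to 0.81, adjusted p = 0.758 in edgeR), with 4 of 4 mice treated with 20 mg above all mice treated with 10 mg, a position found for 1.7% of all genes, with 1.4% wholly below. The exact permutation test for Per1 gave p = 0.0286, two-sided, the smallest that 4 mice against 4 allow. The difference was 0.32 with the mitochondrial share as a covariate and 0.32 in libraries with a share of at least 10%, where 2 of the 4 mice given 10 mg and 1 of those given 20 mg were left out. Per3 differed by 0.31 (interval 0.00 to 0.63, adjusted p = 0.785 in edgeR, exact permutation p = 0.0857) and Per2 by 0.28 (-0.09 to 0.66, adjusted p = 0.831, exact permutation p = 0.2). For Per2 it was 0.10 with the mitochondrial share as a covariate and 0.18 without mouse 1 given 10 mg. Cry1 differed by -0.20 (-0.80 to 0.41, adjusted p = 0.936, exact permutation p = 0.629), an interval that holds sizes of change in either direction, and it ranged from -0.35 to -0.04 without 1 library. The difference of Cry2 was -0.05 (-0.42 to 0.31, adjusted p = 0.974, exact permutation p = 0.714).

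The members could also be set against each other within each mouse, where differences between libraries in depth cancel. Cry1 made up 49.9%, 39.4%, 34.9% and 38.4% of the cryptochrome mRNA per kb in the control mice. Its share was 24.4%, 15.7%, 13.5% and 25.6% at 10 mg and 20.2%, 15.9%, 17.4% and 19.9% at 20 mg. The treated mice did not overlap the control mice, while the summed cryptochrome level, which overlapped, was 3.26 ± 0.644 CPM per kb in control mice, 3.12 ± 0.452 at 10 mg and 2.95 ± 0.569 at 20 mg (SD, n = 4 each).

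Within the Period genes, Per3 took 10.4% ± 2.49 of the mRNA per kb in control mice, 18.2% ± 2.40 at 10 mg and 16.8% ± 1.50 at 20 mg. Per1 took 75.1% ± 1.70, 65.1% ± 3.32 and 68.0% ± 1.24, and the share of Per2 lay between 13.0% and 17.8% over all mice. The ratio of Per1 to Per3 was 7.48 ± 1.58 in control mice, 3.64 ± 0.678 at 10 mg and 4.07 ± 0.404 at 20 mg. The control mouse nearest to the treated mice, replicate 2, had a ratio of 5.12 and a mitochondrial share of 5.77%.

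Per3 and Cry1 are the members regarded as earliest and latest in the daily cycle. Their ratio per kb was 0.411, 0.795, 0.977 and 0.954 in the control mice, 2.36, 4.94, 4.68 and 2.63 at 10 mg and 4.17, 6.41, 3.83 and 5.02 at 20 mg. Cry1 mRNA per kb thus exceeded Per3 in each control mouse, and Per3 exceeded Cry1 in each treated mouse. The order in control mice depends on the division by exon length, 4978 bases for Cry1 and 10491 for Per3. In CPM, Per3 exceeded Cry1 in control replicates 2 (12.3 against 7.35), 3 (10.7 against 5.19) and 4 (9.52 against 4.73). Only in control replicate 1 was Cry1 higher in CPM (9.49 against 8.23). The summed Period level divided by the summed cryptochrome level was 3.04 ± 0.971 in control mice, 3.74 ± 0.974 at 10 mg and 5.30 ± 1.24 at 20 mg, with overlap between control mice and both doses. These ratios use the same contrasts that chose the genes and are a description.

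**Figure D3:**
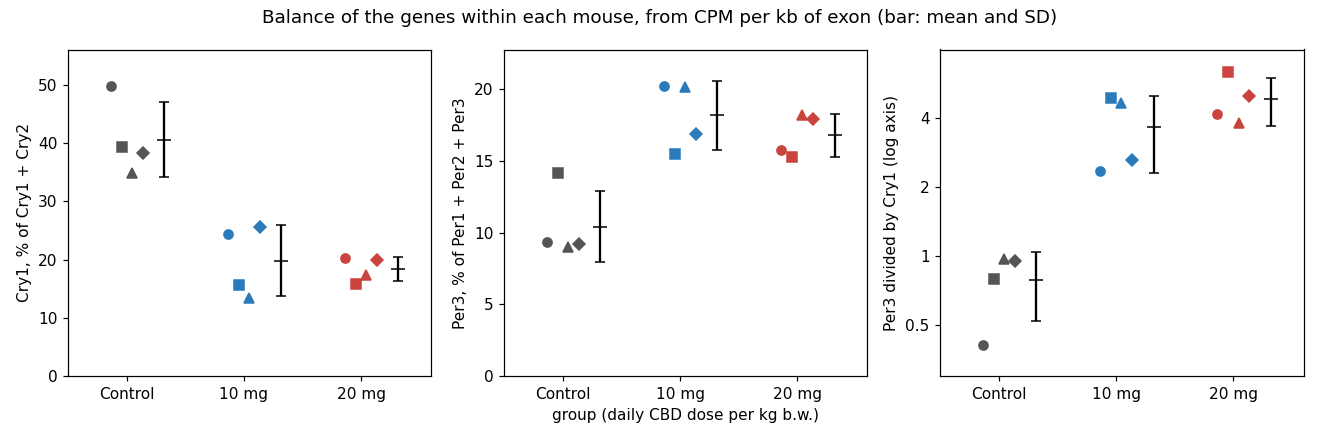
Share of Cry1 in cryptochrome mRNA, share of Per3 in Period mRNA and the ratio of Per3 to Cry1 (log axis) in each mouse, all from CPM per kb of exon, with a bar for the mean and SD of each group. The ratio of Per3 to Cry1 was between 0.411 and 0.977 in control mice and between 2.36 and 6.41 in treated mice.

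Differences between mice of the same group do not depend on the contrasts that chose the genes, and were compared for the 10 pairs of members after removal of each group's mean log2 CPM. Per1 and Per2 varied together over the 12 mice, with Pearson r = 0.838 (permutation of mice within groups, p = 0.00376, adjusted over 10 pairs p = 0.0376) and Spearman rho = 0.811 (permutation p = 0.00629, adjusted p = 0.0629). Without the 2 mice farthest from the median of Per1, r was 0.748. The other 9 pairs were not called, with adjusted permutation p-values for r from 0.451 to 0.669. Per3 followed neither Per1 (r = 0.31, permutation p = 0.356, adjusted p = 0.475) nor Per2 (r = 0.27, permutation p = 0.45, adjusted p = 0.5) beyond that threshold. The 4 libraries with a mitochondrial share under 10% all lay below their group mean for Per1, and 3 of the 4 for Per2. With that share regressed out, r of Per1 with Per2 was 0.61 (adjusted permutation p = 0.172). The call was also lost when control mouse 3 (r = 0.80, adjusted permutation p = 0.127) or mouse 1 given 10 mg (r = 0.78, adjusted permutation p = 0.232) was left out.

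**Figure D4:**
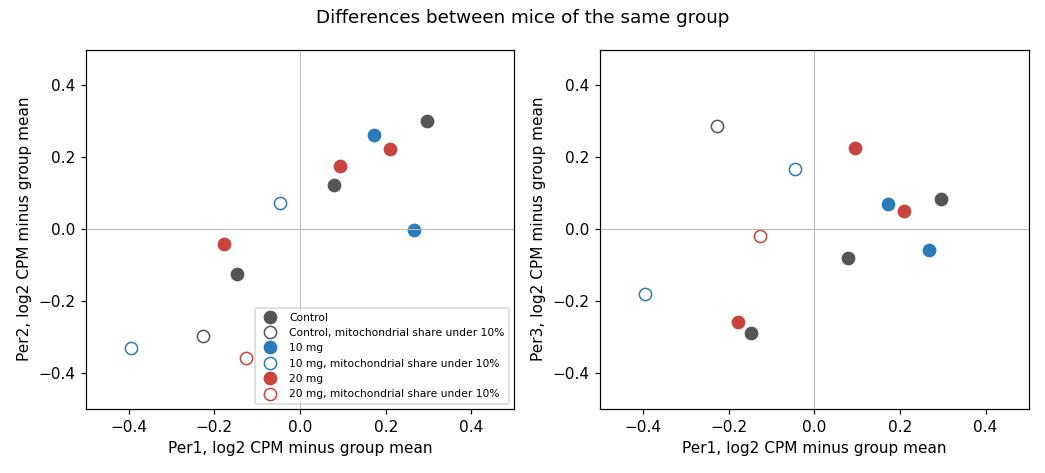
Log2 CPM of Per2 and of Per3 (vertical axes) against Per1 (horizontal axes), each with the group mean subtracted, for the 12 mice, with open symbols for libraries with a mitochondrial share under 10%. Per2 followed Per1 (r = 0.838), and Per3 did so less closely (r = 0.31), a difference between the pairs that was not tested.

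Around the members, the clock lists hold 15 further genes in 4 groups, all of them tested. At 10 mg, 1 of the 15 was called higher and 1 lower, and at 20 mg 5 were called higher and 3 lower, beside 0.0117% and 0.0175% of all genes called in these directions at 10 mg and 0.169% and 0.134% at 20 mg. The activators Bmal1 and Npas2, whose proteins drive the members through E-boxes, fell at 20 mg by 1.21 (SE 0.20) and 1.45 (SE 0.23) on the log2 scale. Npas2 also fell at 10 mg, by 1.42 (SE 0.23). Bmal1 had a log2 difference of -1.02 (SE 0.20) at 10 mg, which edgeR did not call and DESeq2 did. Clock, the remaining activator, was called at neither dose.

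Among the factors that act on D-boxes, Dbp rose by 2.75 (SE 0.21) at 10 mg and 3.36 (SE 0.21) at 20 mg on the log2 scale, and its opponent Nfil3 fell by 1.30 (SE 0.19) at 20 mg. At 10 mg the difference of Nfil3 was -0.98 (SE 0.19), which edgeR did not call and DESeq2 did. The REV-ERB genes Nr1d1 and Nr1d2, repressors of Bmal1 and Cry1 transcription, rose at 20 mg by 1.33 (SE 0.24) and 0.80 (SE 0.14). At 10 mg their differences were 0.80 (SE 0.24) and 0.56 (SE 0.14), not called by edgeR, and DESeq2 called only that of Nr1d2. Of the 3 other E-box repressors, Bhlhe41 rose by 1.46 (SE 0.21) and Ciart by 1.40 (SE 0.27) at 20 mg, while Bhlhe40 had a difference of 0.03 (SE 0.11) and was not called. Per3 thus had the direction of Dbp, and Cry1 that of Bmal1, Npas2 and Nfil3. With 1 library left out, the calls were lost for Npas2 at 10 mg in 6 of 12 fits (log2 difference from -1.53 to -1.30), and at 20 mg for Bmal1 in 1 (-1.38 to -1.03), Nr1d1 in 6 (1.22 to 1.51), Nr1d2 in 3 (0.73 to 0.90) and Ciart in 6 (1.10 to 1.55). With the adipocyte sum as a covariate, an alternative added after seeing the data, Dbp kept its calls. Bmal1 (-1.17), Npas2 (-1.39), Nr1d1 (1.43), Nr1d2 (0.73), Nfil3 (-1.10), Bhlhe41 (1.32) and Ciart (0.97) were not called at 20 mg, nor Npas2 (-1.4) at 10 mg. Among all genes, that covariate left 2 called at 10 mg and 3 at 20 mg, against 5 and 52 without it. The loss of calls was thus not particular to the clock genes. The calls of the clock lists share the control mice with those of the members and were known when the lists were made.

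**Figure D5:**
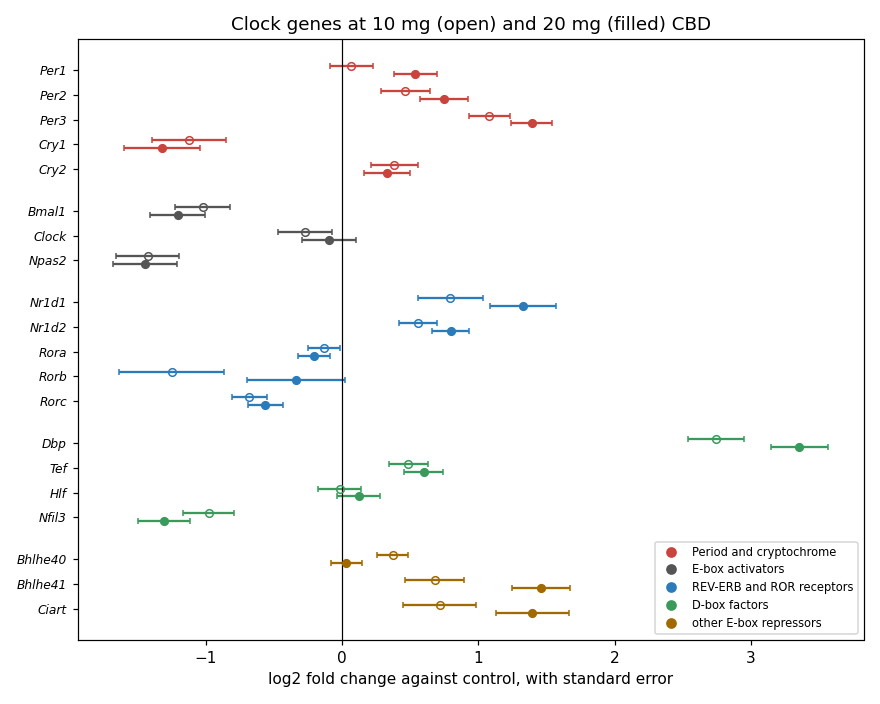
Log2 fold change against control mice (horizontal axis) with its standard error for the 5 members and 15 further clock genes at 10 mg (open points) and 20 mg (filled points), colored by group of genes. Dbp had the largest difference (3.36 at 20 mg), and Cry1 (-1.32), Bmal1 (-1.21), Npas2 (-1.45) and Nfil3 (-1.30) lay farthest below 0 at that dose.

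Genes for proteins that modify or bind PER and CRY were also counted. Of 28 such genes, all tested, 0 were called in edgeR at 10 mg and 1 at 20 mg, beside 0.0291% and 0.303% of all genes, counts too small to set the group apart from other genes. Their median absolute log2 difference at 20 mg was 0.12, beside 0.16 for all genes. The called gene was Usp2, a deubiquitinase whose transcript is itself rhythmic, which rose by 0.81 (SE 0.16) on the log2 scale, a call lost in 9 of 12 fits without 1 library (0.62 to 0.92) and with the adipocyte covariate (0.67). None of the 9 kinases and phosphatases was called. The largest difference at 20 mg there was that of Csnk1e (0.51, SE 0.24), a casein kinase that marks PER proteins for breakdown. It was 0.23 without mouse 3 given 20 mg. It was called with the mitochondrial share as a covariate (0.57), a fit that called 935 genes at 20 mg against 52 without the covariate. Of the 11 protein partners, the RNA helicase Ddx5 was largest at -0.18 (SE 0.11, and -0.08 with the adipocyte covariate) and none was called. Protein levels of PER and CRY were not measured.

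Likeness between expression patterns was described by Pearson r of log2 CPM over the 12 mice, differences between groups included, for all 17163 genes and with no test. For Per3 the closest gene was Dbp (r = 0.970), followed by Tef (0.910), another D-box activator, and Fmnl3 (0.897), and the most opposed was Ypel2 (-0.956). For Cry1 the closest were Atp6v1c2 (0.865), a subunit of the proton pump, the D-box repressor Nfil3 (0.865) and Tmem147 (0.837), and the most opposed was Srsf11 (-0.903), a splicing factor. Per2 was closest to Abi3 (0.927), Nr1d1 (0.926) and Tns2 (0.921) and most opposed to Rtl6 (-0.937). Per1 was closest to Hif3a (0.923), Reep6 (0.919) and Pou2af3 (0.911) and most opposed to As3mt (-0.937), an arsenic methyltransferase. Cry2 was closest to Ltb4r2 (0.946), P2rx5 (0.933) and the noncoding RNA Gm17494 (0.930), with no clock gene among the 3, and most opposed to Appl2 (-0.959). The points of each r share libraries, depth and group.

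The lowest sums of adipocyte markers were in treated mice, with overlap between the groups, as given above. The part of these markers in the levels of the members was tested only as a covariate chosen after seeing the data. Control replicate 3, whose adipocyte sum was 6.50 CPM and thus within the range of the treated mice, had 10.7 CPM of Per3 and 5.19 CPM of Cry1, within the range of the other control mice. These are the values of a single mouse, and a cause was not tested with them. With the adipocyte sum in the model, the log2 difference of Per3 was 1.08 at 10 mg and 1.40 at 20 mg, of which only the second was called, and that of Cry1 was -1.05 and -1.17, neither called. Among all genes, 2 were called at 10 mg and 3 at 20 mg in that model, against 5 and 52 without the sum.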

How the data were processed

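Kidney poly(A) RNA of 12 mice, 4 per group, was sequenced as paired reads. The authors used Flexbar for trimming, STAR 2.7.5c for mapping (to GRCm39) and HTSeq 1.99.2 for counting, and the deposited files hold whole counts per Ensembl gene without normalization. The annotation release, the strand setting and the use of molecular identifiers are not given in the sources used here. Totals had a median of 18193787.5 per library, and the summary lines of the counting tool were left out. None of the 66 pairs of libraries held identical counts. Identifiers were matched to GENCODE vM39 (99.0% of identifiers).

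Counts were compared with edgeR 4.0.16 in R 4.3.3, after filterByExpr and TMM normalization, in 1 quasi-likelihood fit of all 12 libraries in which every group had its own mean. The Benjamini-Hochberg adjustment ran over the 17163 genes tested. Genes with an adjusted p-value under 0.1, as in the study, were called. Log2 CPM used a prior count of 2. CPM per kb was TMM-normalized CPM divided by the length of all exons of a gene. Permutation tests were exact and two-sided, over 70 arrangements for a pair of doses and 13824 arrangements of mice within groups for correlations. Where the mitochondrial share or the replicate block was removed along with the group mean, the permutation p-values for correlations are approximate. The error of every test is the spread among mice treated alike. Replicate numbers were not used to pair the mice, since no label pairs them. Deviations of mice with the same number had correlations from -0.33 to 0.32, which cannot show whether such mice were handled together.

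The members, the clock lists and the tests were chosen with earlier results of these data known. Named genes are the 5 members, every gene of the lists called in any comparison, the gene of each list with the largest absolute log2 fold change at 20 mg, and for each member the 3 most alike genes and the most opposed one. The other genes of the glucocorticoid list and some genes with lower levels in the immediate early list are named as well. Alternatives were RLE normalization, no filter, at least 10 counts in every library, DESeq2 1.42.0, a fit of the compared groups alone, a replicate block, removal of mitochondrial and ribosomal RNA genes, the mitochondrial share as a covariate or at least 10%, an adjusted p-value under 0.05, a prior count of 0.5 for correlations and leaving out each library. The sum of adipocyte markers as a covariate was added after seeing the data. The scripts were tested on simulated data.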

Additional observations from a re-analysis of the deposited data

How the results depend on the processing

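Of the 1090 values for single genes or pairs under the alternatives, 971 kept their direction and side of the threshold and 11 reversed. The number of members called at 10 mg, 1 as reported, was 2 without the filter on low counts and 2 with DESeq2 (Per3 and Cry1 in both), 0 with the adipocyte covariate, and 0 to 1 without 1 library. At 20 mg, where 2 were called, it was 4 without the filter and 4 with the mitochondrial share as a covariate (Per1, Per2, Per3 and Cry1), 3 with DESeq2 and 3 in libraries with a mitochondrial share of at least 10% (Per2, Per3 and Cry1 in both), 1 with the replicate block, 1 at an adjusted p-value under 0.05, 1 with the adipocyte covariate (Per3 in each of these 3), and 1 to 2 without 1 library. Between the doses 0 members were called under every alternative. Pairs called, 1 as reported, were 3 with the replicate block, 0 with the mitochondrial share regressed out and 0 to 3 without 1 library. Mice with the same number were not paired by any label, and the block changed no other count of members called. Genes called in all were 5 at 10 mg (2 to 331 under the alternatives), 52 at 20 mg (3 to 935) and 0 between the doses (0 to 256), with the highest counts at 10 mg and between the doses without the filter and at 20 mg with the mitochondrial share as a covariate. The lowest count at 20 mg, 3, was that with the adipocyte covariate, which left 2 genes called at 10 mg. The cause of these changes was not tested.

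Signs turned as follows. The difference of Cry2 between the doses was 0.098 with the mitochondrial share as a covariate and -0.20 to 0.076 without 1 library. That of Per1 at 10 mg was -0.027 to 0.18 without 1 library. With the replicate block, r was -0.49 for Per1 with Per3, -0.12 for Per2 with Per3 and 0.44 for Per3 with Cry1, and without 1 library the last was -0.30 to 0.18. With the mitochondrial share regressed out, r was 0.53 for Per1 with Cry2 and 0.36 for Per2 with Cry2. Depth limits Cry1 most, with 30 counts in its lowest library.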

Other observations

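Signals known to act on Per transcription were also present in these kidneys as mRNA of their factors and targets. Of 26 such genes, all tested, edgeR called 0 at 10 mg and 1 at 20 mg, beside 0.0291% and 0.303% of all genes tested. The called gene was Ddit4, a target of glucocorticoids and an inhibitor of mTOR signalling, which rose by 1.09 (SE 0.23) on the log2 scale at 20 mg, from 12.2 ± 3.42 CPM in control mice to 26.1 ± 1.45 CPM (SD, n = 4 each). The call was lost in 9 of 12 fits without 1 library, with log2 differences from 0.94 to 1.26, and with the adipocyte covariate (0.98). At 20 mg, 3 of the 8 glucocorticoid genes lay wholly above the control mice, against 2.67% of all genes, and the median log2 difference of the 8 was 0.47. DESeq2, which called 1.06% of all genes at 20 mg, called Ddit4 and also Fkbp5 (0.72, SE 0.18), Tsc22d3 (0.83, SE 0.22) and Klf15 (0.46, SE 0.12). EdgeR did not call the last 3. Klf9 (0.32, SE 0.14) and Zbtb16 (0.48, SE 0.32) were higher and called by neither tool. The receptor gene Nr3c1 (-0.34, SE 0.13) and the target Sgk1 (-0.28, SE 0.21) had the opposite direction and were called by neither tool.

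None of the 9 genes of the cAMP and immediate early response was called at either dose. Junb, an immediate early transcription factor, had the largest difference at 20 mg, with 0.57 (SE 0.27), which ranged from 0.36 to 0.77 without 1 library. At 10 mg it was 0.03 (SE 0.27). Larger differences at 10 mg were falls, of Fos (-1.09, SE 0.55), Egr1 (-0.97, SE 0.37) and Nr4a1 (-0.82, SE 0.22). Of 7 heat shock genes none was called, and the chaperone gene Hsph1 had the largest difference, -0.46 (SE 0.14), which was called with the mitochondrial share as a covariate (-0.47). Neither of the 2 cold-inducible genes was called, with 0.46 (SE 0.33) for Cirbp, an RNA-binding protein that rises when body temperature falls. The difference of Cirbp was 0.0004 without mouse 3 given 20 mg and 0.11 with the adipocyte covariate, and it was called with the mitochondrial share as a covariate (0.52). The fit that called Hsph1 and Cirbp called 935 genes at 20 mg, against 52 without the covariate.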
